A study of Homo sapiens with 12 samples.

Results

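MV4-11 is an established acute myeloid leukaemia (AML) line with a rearranged MLL1 (KMT2A) gene. Its open chromatin after treatment with the menin inhibitor VTP50469 was set against that of control cells. The 4 MV4-11 libraries were chosen by their titles from the 12 bulk ATAC-seq libraries of the series, which also covers MOLM13, a second line with rearranged MLL1, and OCI-AML3, with mutant NPM1. In ATAC-seq the transposase Tn5 cuts open DNA and attaches sequencing adapters to it, and stretches with many cuts are called as peaks. The study asked how menin inhibition alters accessibility at the targets of MLL1 fusion proteins and at genes of myeloid differentiation.

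The VTP50469 group held 2 libraries of MV4-11 cells given 500 nM of the compound for 16 h. The control group held 2 libraries of MV4-11 cells labelled as control, and the labels do not say what these cells received instead. All 4 came from the same line, with the same MLL1 rearrangement, were grown in IMDM with serum and were frozen before nuclei were isolated. Nothing says that the 2 libraries of a group were separate cultures, so every p-value below measures only the spread between these libraries, which may be technical. A single line is also a limited model of MLL1-rearranged AML.

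Menin is a chromatin adaptor that binds the start of the MLL1 protein, a part that MLL1 fusion proteins keep. Through it they reach the promoters and the long bodies of their target genes, of which the homeobox genes HOXA9 and MEIS1 are the best known in AML. Compounds such as VTP50469 fill the pocket of menin in which MLL1 sits. In MLL1-rearranged cells such compounds are known to lower the RNA of MEIS1 and its like and to raise that of genes of mature myeloid cells, such as ITGAM and LYZ.

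The VTP50469 libraries 1 and 2 held 112922 and 141695 peaks on chromosomes 1 to 22, against 122425 and 128880 in control libraries 1 and 2. They covered 30.2 and 35.9 Mb with VTP50469 and 32.9 and 35.6 Mb in controls. Sequencing totals are not known. The reads over each summit were recovered from the fold and p of each peak, and their medians were 12 and 11 with VTP50469, against 12 and 13 in controls. VTP50469 library 2, with the most peaks, had the lowest median −log10 q of a peak, 5.74, against 7.10 to 7.23 in the other libraries, and also the lowest background, 0.911 reads, against 1.06 to 1.17. The 2 VTP50469 libraries had 0.519 of their covered bases in common and the 2 control libraries 0.554, while pairs across the groups had 0.519 to 0.537. The control libraries were thus the pair most alike, while the VTP50469 libraries were no more alike than libraries of different groups. Of 11 myeloid markers, 10 and 10 had a promoter peak in the VTP50469 libraries and 9 and 10 in the controls. Of 8 B cell markers 5 and 5 had one with VTP50469 and 4 and 5 in controls, with CD79A, PAX5, EBF1 and CD22 called in all 4 libraries and CD79B and MS4A1 in none. Of 8 T cell markers 2 and 2 had one with VTP50469 and 1 and 2 in controls, with CD3D, CD3E and CD3G called in none, and of 4 NK cell markers 2 had one in every library. Of 6 erythroid and megakaryocyte markers 1 had a promoter peak in every library, and of 5 epithelial markers 1 and 3 had one with VTP50469 and 0 and 2 in controls.

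Peaks that overlapped by at least 1 bp over the 4 libraries merged into 202805 regions. A region was called lost where both controls and neither VTP50469 library had a peak, and gained in the reverse case. Lost regions numbered 5543, or 2.73% of all, and gained regions 3866, or 1.91%. No test of presence was made, because 2 libraries against 2 cannot go below p = 0.333 in an exact permutation test. All 4 libraries had a peak in 68527 regions. A further 48629 regions had a peak in 1 VTP50469 library alone and 39515 in 1 control library alone. Where no peak was called, the DNA need not be closed. In such bulk libraries, fewer cells with an open site and a less open site per cell cannot be told apart.

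Lost and gained regions were weak. Their better peak had a median −log10 q of 5.13 in gained and 5.76 in lost regions, against 17.7 in regions called in all 4 libraries, and medians of 9 and 10 reads, against 23. Gained regions had median folds of 4.80 and 4.61 in VTP50469 libraries 1 and 2, and lost regions had 4.81 and 4.76 in control libraries 1 and 2. Only 6.96% of gained and 7.31% of lost regions lay within 1 kb of a start site, against 21.2% of those called in all 4 libraries. Regions called in 1 library of each group were much the same as lost and gained ones. Of these, 7.70% lay within 1 kb of a start site, with a median −log10 q of 5.21 and 9 reads. Seen by place, 1.13% of promoter regions were gained and 1.70% lost, and of the regions inside genes 1.94% were gained and 2.98% lost. Lost regions outnumbered gained ones on each of the 22 chromosomes, by 1.22 to 1.86 times.

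**Figure D1:**
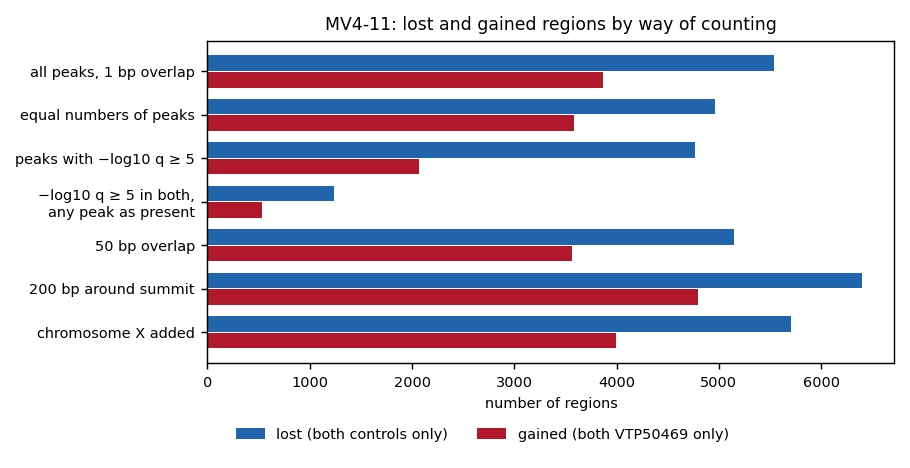
Bars give the number of regions lost (blue, called in both controls and neither VTP50469 library) and gained (red, the reverse) under 7 ways of counting, with bar length as the number of regions. Lost regions outnumber gained ones in each, and both are fewest, at 1233 and 536, where both peaks had to reach a −log10 q of 5.

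With equal numbers of peaks in each library, 112922, there were 3580 gained and 4963 lost regions, and 2888 of the 3866 gained and 3914 of the 5543 lost regions kept their class. With a −log10 q of at least 5 asked of both peaks, and any peak of the other group still counted as present, 536 gained and 1233 lost regions were left. Leaving out a library asks for fewer peaks and so raised both counts. Without VTP50469 library 1 there were 38501 gained and 9510 lost regions, and without VTP50469 library 2 there were 19369 and 13804. Without control library 1 there were 7577 gained and 28203 lost regions, and without control library 2 there were 9194 and 24458. The order of the 2 counts thus followed which group was left with 1 library.

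The strongest lost regions lay mostly inside genes or far from them. The strongest by the weaker of its 2 peaks was in NGDN, which encodes neuroguidin (chr14:23478441-23478559), with no peak in either VTP50469 library, against folds of 11.4 and 11.1 in control libraries 1 and 2. Fold here divides the reads over the summit by the background around it in that library. The region of CLOCK, a circadian transcription factor, lay 42.5 kb from the nearest start site (chr4:55503230-55503441) and had folds of 9.61 and 9.42 in the controls and no peak with VTP50469. A region beside NCOA6, a coactivator of nuclear receptors, lay 8.89 kb from the start of TP53INP2 (chr20:34713507-34713708) and had 7.41 and 6.54 in the controls and none with VTP50469. MYO10, an unconventional myosin, held one with 9.15 and 12.3 in the controls (chr5:16916578-16916834). These 4 regions had −log10 q values between 13.6 and 23.2 in the controls. The other 6 of the 10 strongest lay in SPG21 and in LOC105374697, and outside genes nearest to LOC101927182, LOC124901804, LOC105369439 and CDH17, a cadherin.

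Gained regions were slightly weaker at the top. A region near LOC105374689 had folds of 10.2 and 10.4 in VTP50469 libraries 1 and 2 and no peak in the controls (chr5:24277827-24277937). In TANC2, which encodes a synaptic scaffold protein, a region 132 kb from the nearest start had 8.999 and 9.82 with VTP50469 (chr17:63098290-63098419). CCL18, a chemokine of macrophages, had one within 5 kb of the gene, 1.88 kb from the start of CCL3-AS1 (chr17:36072501-36072960), with 8.53 and 9.21. NCKAP1, a subunit of the WAVE complex that drives actin branching, held one with 8.40 and 10.4 (chr2:182980138-182980290). Each of these was called in neither control. LINC02572, ARMH3, EBF4, LMCD1-AS1, LOC101927237 and KCNIP2 name the other 6 of the 10 strongest, with −log10 q values of 10.7 to 19.7.

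At promoters, 405 regions were lost and 269 gained. The strongest lost promoter was that of RHOBTB2 with folds of 6.20 and 7.16 in control libraries 1 and 2 and none with VTP50469. It was followed by those of CACNA1C, a calcium channel subunit (7.77 and 7.81 in controls), TRD-AS1 at the T cell receptor delta locus (6.94 and 6.90) and ANKRD34C (8.30 and 7.73). The promoter region of SYK, a tyrosine kinase of immune receptors and a known dependency of some AML cells, lay 0.925 kb from its start (chr9:90802693-90802795) and had 5.56 and 5.78 in the controls and no peak with VTP50469. LOC105378333, PUS7L, SSMEM1, ACTN4, which encodes an actin crosslinker, and ABCA2 complete the 10. Among gained promoters, ADGRE3, an adhesion receptor of mature myeloid cells (chr19:14674864-14675190), had folds of 6.13 and 5.73 in VTP50469 libraries 1 and 2 and no peak in controls. TSC22D1, a transcription regulator, had 5.59 and 6.32 (chr13:44436723-44436952), and MRPL45, a protein of the mitochondrial ribosome, 10.2 and 6.75 (chr17:38296879-38296981). LOC105374836, ASTN2-AS1, JAKMIP2-AS1, ADI1, MUC8, ACTG1 and MIR31HG complete that 10.

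The DNA of some of these promoter regions follows, so that sites that differed by presence can be read. Each line is the part of the region within 250 bases upstream of the start site, on the strand of the gene, from the promoter table of RefSeq on GRCh38.p14, the build family of the deposited positions (hg38). Capitals mark matches to one of 12 short motifs searched on both strands, and a stretch without capitals has none of them. The first 4 were lost and the last 4 gained, and TCF4, CSF1R and S100A8 are shown because they belong to the gene groups described further on.
TRD-AS1, lost, chr14:22432754-22432947, minus strand: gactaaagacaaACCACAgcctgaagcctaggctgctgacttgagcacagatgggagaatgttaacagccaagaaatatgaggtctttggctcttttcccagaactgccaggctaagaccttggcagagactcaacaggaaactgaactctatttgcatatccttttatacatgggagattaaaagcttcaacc
SSMEM1, lost, chr7:130207718-130207859, plus strand: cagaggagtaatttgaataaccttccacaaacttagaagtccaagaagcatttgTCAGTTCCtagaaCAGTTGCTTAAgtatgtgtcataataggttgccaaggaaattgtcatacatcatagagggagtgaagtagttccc
ACTN4, lost, chr19:38693947-38694120, plus strand: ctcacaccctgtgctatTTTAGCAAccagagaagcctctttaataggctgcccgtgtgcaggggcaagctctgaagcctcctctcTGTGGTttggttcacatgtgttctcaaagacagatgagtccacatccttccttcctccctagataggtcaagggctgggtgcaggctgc
TCF4, lost, chr18:55588618-55588783, minus strand: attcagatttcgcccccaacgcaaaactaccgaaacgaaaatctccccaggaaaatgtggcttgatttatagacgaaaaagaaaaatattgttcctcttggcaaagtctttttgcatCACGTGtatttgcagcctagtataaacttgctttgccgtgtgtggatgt
ADGRE3, gained, chr19:14674864-14675094, minus strand: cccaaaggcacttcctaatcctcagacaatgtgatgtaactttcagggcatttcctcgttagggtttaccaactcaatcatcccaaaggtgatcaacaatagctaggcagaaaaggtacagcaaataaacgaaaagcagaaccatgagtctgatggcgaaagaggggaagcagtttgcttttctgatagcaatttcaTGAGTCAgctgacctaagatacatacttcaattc
TSC22D1, gained, chr13:44436859-44436952, minus strand: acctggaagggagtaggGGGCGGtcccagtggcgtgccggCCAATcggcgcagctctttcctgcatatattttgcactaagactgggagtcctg
CSF1R, gained, chr5:150086555-150086680, minus strand: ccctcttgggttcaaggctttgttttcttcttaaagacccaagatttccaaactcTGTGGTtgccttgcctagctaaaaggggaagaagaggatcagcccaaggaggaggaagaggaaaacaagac
S100A8, gained, chr1:153391189-153391283, minus strand: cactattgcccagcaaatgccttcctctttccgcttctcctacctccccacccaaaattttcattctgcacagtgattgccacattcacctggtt

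The lost TRD-AS1 and ACTN4 stretches and the gained CSF1R stretch hold the RUNX letters TGTGGT or their reverse complement, and ACTN4 also holds a CEBP match. The lost SSMEM1 stretch holds a MYB match (CAACTG, read on the other strand) that overlaps a CEBP match (TTGCNNAA), and a match to GGAANTGA, letters of IRF and PU.1 sites. TCF4 holds CACGTG, the E-box of MYC, ADGRE3 holds TGANTCA of AP-1, and TSC22D1 holds GGGCGG of SP and KLF factors and CCAAT of NFY. Windows of 300 bases were read at 33551 RefSeq promoters, with none on chromosome 8. TGTGGT stood in 21.3% of the 89 windows at gained regions and in 20.2% of the 104 at lost regions. It stood in 9.41% of those at regions called in all 4 libraries, against 13.1% of all windows. The letters GGGCGG stood in 46.1%, 45.2% and 70.5% of the same windows, against 45.0% of all, and CCGGAAG of ETS factors in 6.74%, 3.85% and 19.3%, against 10.2% of all. TGANTCA stood in 7.87% of gained, 11.5% of lost and 4.87% of always called windows, against 7.68% of all. The windows at regions called in 1 library of each group had GGGCGG in 45.6% and CCGGAAG in 5.54%, close to the lost and gained ones, and TGTGGT in 15.3%, nearer to all windows. GC content had medians of 56.0% at gained, 62.7% at lost and 66.0% at always called windows, and was not held equal in these shares. For CAACTG of MYB the shares were 10.1%, 11.5% and 8.77%, against 11.4% of all windows. CCAAT stood in 29.2%, 25.0% and 35.0%, against 34.4% of all, and CACGTG in 6.74%, 10.6% and 9.89%, against 7.15%. TTGCNNAA stood in 11.2%, 7.69% and 7.29%, against 10.5%, and GGAANTGA in 7.87%, 6.73% and 8.64%, against 7.28%. TGACAG of MEIS factors stood in 18.0%, 20.2% and 12.8%, against 15.8%, AGATAA of GATA factors in 8.99%, 8.65% and 4.57%, against 10.4%, and TGACGTCA of CREB and ATF in 1.12%, 0% and 3.38%, against 1.86% of all windows.

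The 24 targets of MLL1 fusion proteins held 709 regions in their loci, a locus being the gene and the 5 kb next to either end. Of these, 8 were gained and 35 lost, which is 1.13% gained and 4.94% lost, beside 1.91% and 2.73% of all regions. Lost regions lay in 17 of the genes and gained ones in 7. Several of these genes were named by the study from its own data, and regions of 1 gene are not independent, so the count is a description. VTP50469 libraries 1 and 2 had a peak in 317 and 421 of the 709 regions and control libraries 1 and 2 in 383 and 443, so VTP50469 library 2 lay above control library 1. Over all 202805 regions the same counts were 105111 and 133794, against 114279 and 122036. With equal numbers of peaks 10 were gained and 25 lost, and with a −log10 q of at least 5 in both peaks 2 and 8. Lost regions also outnumbered gained ones over all regions under both settings. Within 5 kb of the start sites alone, 0 were gained and 4 lost of 99 regions. Without VTP50469 library 1 there were 123 gained and 47 lost regions, and without VTP50469 library 2 there were 59 and 67. Without control library 1 there were 19 and 156, and without control library 2 there were 26 and 105. Of the 35 lost regions, 18 had no peak in any MOLM13 library and 25 none in any OCI-AML3 library. Among all 5543 lost regions, 57.3% lacked a peak throughout MOLM13 and 75.0% throughout OCI-AML3. By the same rule within MOLM13, 0 of the 35 counted as lost and 1 as gained. Within OCI-AML3 there was 1 of each. Over all 5543 the shares were 1.48% and 2.35% for MOLM13, and 1.43% and 0.668% for OCI-AML3. Counts this small cannot set the 35 apart from all lost regions.

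MEIS1, the homeobox partner of HOXA9, held 23 regions. VTP50469 libraries 1 and 2 had peaks in 16 and 15 of them and control libraries 1 and 2 in 15 and 19. Its promoter region had folds of 7.71 and 6.91 with VTP50469, against 8.39 and 8.99 in controls. These groups did not overlap, which with 2 libraries against 2 gives only p = 0.333 in an exact permutation test. The difference in limma on normal scores was −0.32 (SE 0.39), less than its own error. The regions just before it differed in the opposite direction. The one 0.741 kb before the start had 4.19 and 3.69 with VTP50469, against 3.61 and 3.22 in controls (0.63, SE 0.41), and the one at 1.62 kb had 6.63 and 5.47, against 4.61 and 5.27 (0.66, SE 0.41). A normal score is the rank of a fold within its library put on a bell-shaped scale with SD near 1. Both lost regions lay in the gene body. The one at chr2:66539547-66539723, 105 kb from the start, had folds of 7.81 and 7.93 in control libraries 1 and 2, and the one 61.1 kb from the start (chr2:66496076-66496316) had 8.11 and 3.63. No region of MEIS1 was gained. A region 43.8 kb from the start went the other way, with 4.98 and 9.25 in VTP50469 libraries 1 and 2, no peak in control library 1 and 4.76 in control library 2.

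FLT3, the receptor tyrosine kinase, had peaks in 14 and 16 of its 26 regions with VTP50469 and in 18 and 17 in controls, and 3 of the 26 were lost and 0 gained. The strongest of the lost regions stood 98.3 kb from the start, beyond the end of the gene (chr13:28001943-28002543), with folds of 4.52 and 4.90 in the controls and no peak with VTP50469. The FLT3 promoter had folds of 16.0 and 13.9 with VTP50469, against 16.2 and 13.8 in controls, and these values overlapped. Inside the gene, 57.2 kb from the start, a region had 8.97 and 9.26 with VTP50469, against 4.90 and 6.83 in controls, while the region at 52.6 kb had 7.50 and 7.09, against 10.1 and 10.7. Neighbouring sites of FLT3 thus differed in opposite directions, and neither passed the test over all regions.

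MEF2C, a MADS box transcription factor, had peaks in 15 and 19 of 37 regions with VTP50469 and in 22 and 23 in controls, with 2 lost (67.5 and 8.34 kb from its start, folds of 3.94 to 5.22 in the controls) and 0 gained. Of its 11 regions called in all 4 libraries, 8 had a higher and 3 a lower mean score with VTP50469. The region 14.5 kb from the start had folds of 7.48 and 7.96 with VTP50469, against 4.74 and 5.50 in controls, and the region at 170 kb had 8.06 and 5.86, against 4.64 and 4.51. The region at 20.4 kb ran the other way, with 8.04 and 7.51, against 10.03 and 9.12. PBX3, a partner of MEIS1, had peaks in 6 and 12 of 25 regions with VTP50469, against 10 and 20 in controls, with 2 lost. Of its 25 regions 11 had a peak in a single control library. Its promoter had 11.7 and 8.60 with VTP50469, against 10.8 and 9.81 in controls, which overlap.

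**Figure D2:**
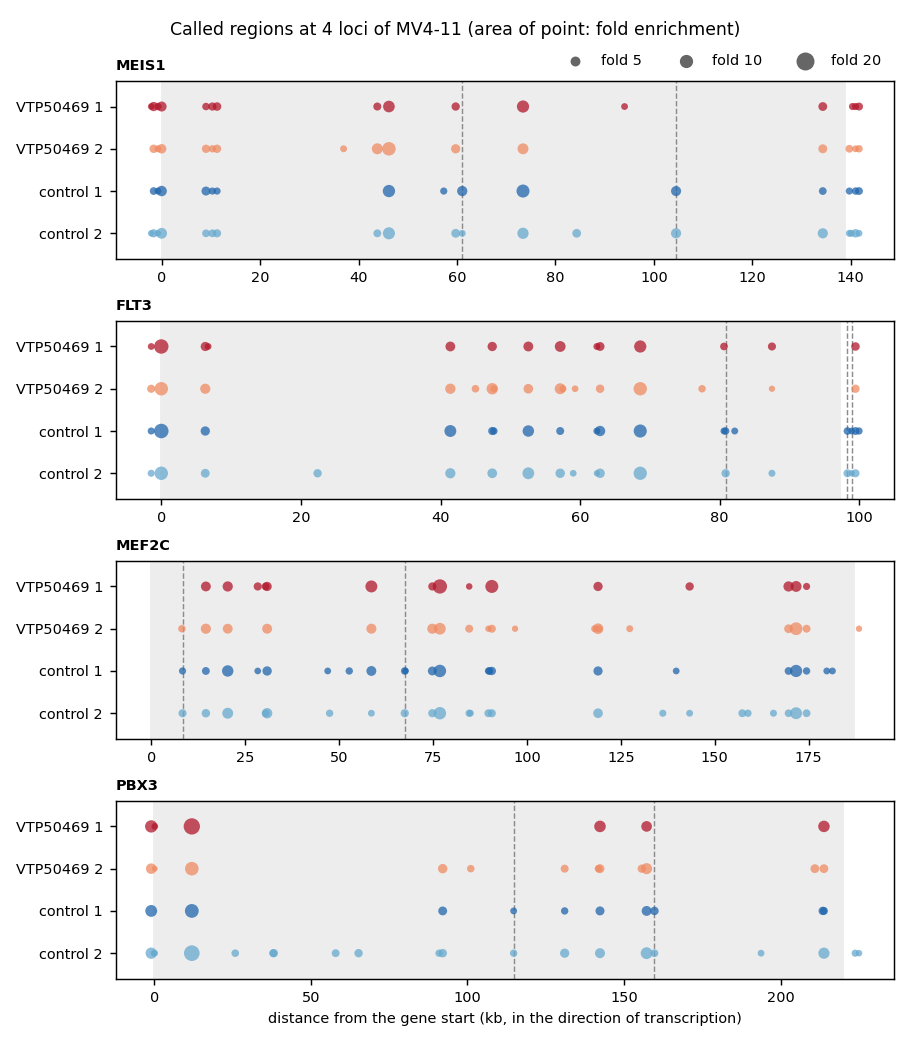
Rows are the 4 libraries, VTP50469 above control, the x axis is the distance from the gene start in kb, grey marks the gene body, and the area of a point is its fold enrichment. Dashed lines mark the lost regions, 2 in MEIS1, 3 in FLT3, 2 in MEF2C and 2 in PBX3, where the control points have folds of 2.99 to 8.11, while most of the large points recur in all 4 rows.

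SATB1, an organiser of chromatin loops, had 4 lost and 0 gained regions among 32, all inside the gene, 14.3 to 62.5 kb from its start and with folds of 3.26 to 5.17 in the controls. GNAQ, a G protein subunit, had 1 gained and 4 lost of 70, and one of the lost lay at a promoter (chr9:78030224-78030986), with 4.78 and 3.997 in control libraries 1 and 2. DOT1L, the histone H3K79 methyltransferase that MLL1 fusion proteins recruit, had 3 lost of 16, with folds of 4.32 to 5.44 in the controls. TCF4, a helix-loop-helix factor, also had 3 lost, of 37. The one at an inner promoter, printed above, had 3.19 and 5.51 in the controls. RUNX1, a core factor of blood stem cells, had 1 gained and 2 lost of 57, RUNX2 2 lost of 25, and ZEB2, a repressor with zinc fingers, 1 gained and 2 lost of 39. CDK6, the G1 kinase, EYA1, a phosphatase and coactivator, MYB, a factor of progenitors, and CPEB2, which binds RNA, had 1 lost and 0 gained each. The CPEB2 region (chr4:15028642-15028870) had 5.74 and 10.0 in the controls. JMJD1C, a demethylase-like protein, had 1 gained and 1 lost, and BCL2, the apoptosis inhibitor, 2 gained and 1 lost. IGF2BP2, an RNA-binding protein of fetal tissues, and SUPT3H, a subunit of SAGA, had 1 gained and 0 lost each. SENP6, a SUMO protease, LAMP5, a lysosomal membrane protein, MYC, ADGRG6 and ZFPM2 had 0 lost and 0 gained.

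HOXA9 held 4 regions. Its promoter had a fold of 5.46 in VTP50469 library 2 and 4.22 in control library 1 and no peak in the other library of each group, so no direction can be read from it. The HOXA cluster held 32 regions, of which 1 was gained and 0 lost. The gained region lay at the HOXA2 promoter (chr7:27102068-27102210), with 4.42 and 4.52 in VTP50469 libraries 1 and 2, and also falls in the locus of HOXA3. HOXA10, another posterior HOXA gene, had a promoter region at 8.56 and 6.43 with VTP50469, against 4.78 and 6.59 in controls. The HOXB cluster had 1 lost region among 18, at HOXB13, with 3.73 and 3.22 in the controls.

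Genes of myeloid differentiation had 6 gained and 4 lost of 157 regions, or 3.82% and 2.55%, beside 1.91% and 2.73% of all. With equal numbers of peaks the counts were 3 and 3, with 200 bp around each summit 6 and 8, and with only peaks of a −log10 q of at least 5 they were 3 and 9, so the order depended on the way of counting. Without VTP50469 library 1 they were 19 and 7, without VTP50469 library 2 14 and 13, without control library 1 8 and 13, and without control library 2 11 and 19. ITGAM, which encodes the integrin CD11b, had its gained region 39.2 kb inside the gene (chr16:31299095-31299234), with folds of 5.74 and 6.14 in VTP50469 libraries 1 and 2 and no peak in controls. Its promoter had 16.6 and 18.4 with VTP50469, against 15.4 and 14.5 in controls. LYZ, the lysozyme gene, had a gained region 4.80 kb before its start (chr12:69343514-69343641), with 4.74 and 6.08, and its promoter had 14.8 and 14.4 with VTP50469, against 11.3 and 12.01 in controls. Neither promoter overlapped between the groups, which with 2 libraries against 2 gives only p = 0.333 in an exact permutation test. In the same list the CD14 promoter was also apart and higher, with 6.65 and 6.69 with VTP50469, against 6.23 and 6.28 in controls. The TLR4 promoter was apart and lower, with 13.9 and 15.1, against 16.9 and 15.2. The share of all promoters without overlap is not given here. The normal scores differed by 0.47 (SE 0.40) at ITGAM and 0.57 (SE 0.39) at LYZ in limma, within 2 SE of 0.

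CSF1R, which encodes the M-CSF receptor, gained the inner promoter printed above, with 4.40 and 3.94 in VTP50469 libraries 1 and 2, and lost a region 37.3 kb from its start, with 3.54 and 3.73 in the controls. S100A8, one of the calprotectin pair, gained a promoter region with 3.38 and 3.53, S100A9, the other of the pair, a region with 4.69 and 3.63, and CD68, a lysosomal protein of macrophages, a promoter region with 2.90 and 2.62. MNDA, a nuclear antigen of monocytes, had the strongest shift among the promoters of this group. Its promoter (chr1:158830981-158831542) had folds of 20.3 and 16.3 with VTP50469, against 8.22 and 12.5 in controls, and its reads were 40 and 35, against 15 and 26. Its normal score was higher by 1.63 (SE 0.47), with an adjusted p of 0.736 in limma. ITGAX, which encodes the integrin CD11c, lost the strongest region of the group (chr16:31365129-31365426), with 10.3 and 7.28 in the controls and no peak with VTP50469. CD36, a scavenger receptor, and TLR4, the lipopolysaccharide receptor, lost 1 each, with 4.63 and 3.73 and with 4.52 and 3.71 in control libraries 1 and 2. CD86, a ligand of T cell costimulation, had 0 lost and 0 gained of 17 regions, with a promoter at 5.95 and 7.43 with VTP50469, against 6.34 and 11.5 in controls.

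Myeloid transcription factors had 2 gained and 5 lost of 107 regions, or 1.87% and 4.67%, beside 1.91% and 2.73% of all. SPI1, which encodes PU.1, had 1 of each, with 3.50 and 3.09 in VTP50469 libraries at the gained region and 3.32 and 4.43 in controls at the lost one. FLI1, an ETS factor, gained a promoter region (4.38 and 4.21). IRF8, a factor of monocytes and dendritic cells, lost a region 9.49 kb from its start (4.62 and 4.25 in controls). The IRF8 promoter had 8.57 and 10.4 with VTP50469, against 12.1 and 11.2 in controls. These promoter folds were lower with VTP50469 and did not overlap, which gives only p = 0.333 in an exact permutation test. RARA, a retinoic acid receptor, lost a region with 3.83 and 4.78 in controls, and NR4A1, a nuclear receptor, one with 3.51 and 3.23. The stem and progenitor genes had 5 gained and 9 lost of 233, or 2.15% and 3.86%, beside 1.91% and 2.73% of all regions. KIT, the stem cell factor receptor, had 2 gained and 2 lost, and CD34, the stem cell marker, 2 gained and 0 lost. ERG, an ETS factor, had 2 lost regions while its promoter, called in all 4 libraries, had 7.199 and 5.40 with VTP50469, against 4.21 and 4.01 in controls. CLEC12A, a surface lectin of AML stem cells, lost a promoter region with 5.75 and 4.91 in the controls (chr12:9951089-9951359), while its strongest promoter region had 10.6 and 9.75 with VTP50469, against 8.10 and 6.58. MECOM had 1 gained and 1 lost, and MSI2, SPINK2 and THY1 lost 1 each, with folds of 3.69 to 5.94 in the controls.

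The genes of menin, MLL1 and their partners had 2 gained and 5 lost of 143 regions, or 1.399% and 3.50%, beside 1.91% and 2.73% of all. AFF1, which encodes the fusion partner AF4, had 1 gained and 3 lost, with 3.71 to 6.60 in the controls at the lost ones. ELL, an elongation factor, and MLLT1, which encodes ENL, lost 1 each, and RBBP5, a core subunit of MLL complexes, gained a promoter region with 3.42 and 3.30. The MEN1 promoter had 16.1 and 17.2 with VTP50469, against 14.6 and 17.0 in controls, and the KMT2A promoter 10.9 and 9.31, against 9.83 and 7.99, and both overlapped between the groups. The list of apoptosis genes left out BCL2, which was counted with the MLL targets and had 2 gained and 1 lost of 48 regions. The listed apoptosis genes had 0 gained and 7 lost of 72 regions, or 0% and 9.72%, beside 1.91% and 2.73% of all. VTP50469 libraries 1 and 2 had a peak in 37 and 54 of the 72 and control libraries 1 and 2 in 55 and 50, so VTP50469 library 2 lay between the controls and VTP50469 library 1 alone lay below them. The lost regions lay in BAX and BID, 2 each, and in PMAIP1, 1, which promote cell death, and in BCL2L1, 2, which inhibits it. Their folds were 2.77 to 7.46 in the controls, and one of the BAX regions lay at the promoter of its neighbour FTL. BCL2L11, which encodes the death activator BIM, had 0 lost, and its promoter had 8.30 and 8.68 with VTP50469, against 5.56 and 5.36 in controls. AP-1 and immediate early genes had 0 lost and 0 gained of 58 regions.

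**Figure D3:**
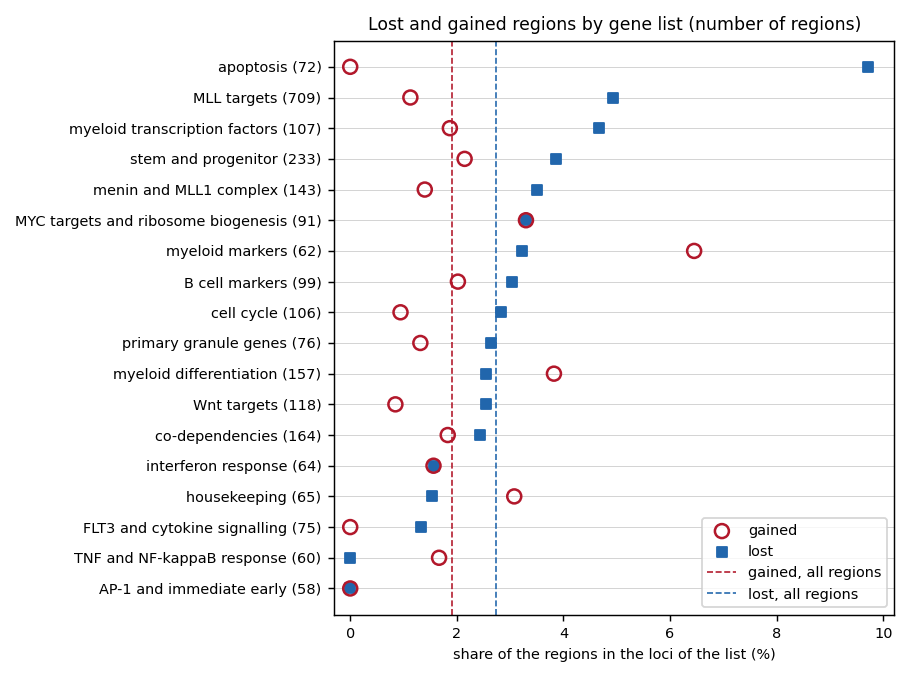
Each row is a gene list with at least 50 regions in its loci, their number in brackets, and the x axis gives the share of these regions that were gained (open red circles) or lost (blue squares) in percent, with dashed lines for all regions. MLL targets, with BCL2, stand at 1.13% gained and 4.94% lost, myeloid differentiation at 3.82% and 2.55%, and the apoptosis genes, without BCL2, at 0% and 9.72%.

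By gene, SMYD3, a methyltransferase of the SET family, and MAML3, a coactivator of Notch, tied for the largest excess of lost regions, with 2 gained and 8 lost of 87 and with 0 gained and 6 lost of 81. MGAT5, a glycosyltransferase, had 1 and 6 of 55, and LPP, a focal adhesion protein, 0 and 5 of 77. SLX4IP and PRR5L had 1 and 5 each, and SLC22A16, BORCS8-MEF2B, DOCK9 and SATB1 0 and 4 each. In the reverse direction, B3GALT1, PDE7B, DST and NRG1 had 4 gained and 0 lost, MAGI2 and ITGA9 5 and 1, and PRTG, NR1H3, NRP1 and MGAT4C 3 and 0. NR1H3 is the liver X receptor alpha of macrophages, and its 3 gained regions stood among 11. These are mostly long genes, and a long gene has more regions to lose or gain.

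For the 68527 regions called in all 4 libraries, the strength of the peaks could be tested. In limma on normal scores with Benjamini-Hochberg adjustment, 0 regions passed an adjusted p of 0.05 (0% of those tested, smallest adjusted p 0.736). At an unadjusted p of 0.05, 2056 regions, or 3%, were higher and 2462, or 3.59%, were lower with VTP50469. None of the other ways of scoring gave a region that passed. The lowest p of all went to a region between genes near LOC105378783 (chr1:68780654-68781390), with folds of 4.73 and 4.57 in VTP50469 libraries 1 and 2, against 13.9 and 13.2 in controls. Its score differed by −2.56 (SE 0.39). In ZFP1, a zinc finger gene (chr16:75140481-75140703), folds were 4.20 and 4.30 with VTP50469, against 10.6 and 14.3 in controls. Near ITGA6, an integrin of stem and progenitor cells (chr2:172416353-172416851), they were 4.80 and 5.52, against 13.7 and 15.1. FYB1, an adaptor of immune cells, held a region inside the gene (chr5:39202957-39203246) with 4.71 and 3.61, against 10.4 and 11.8. In these regions the highest VTP50469 value lay far below the lowest control value. RAB10, ARMC8, GRIK4, DIPK2A, LOC105372661 and LOC105375188 name the rest of the 10.

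Among higher regions, that in MED12L, a homologue of a Mediator subunit (chr3:151093964-151094244), had 8.40 and 9.21 with VTP50469, against 3.94 and 3.91 in controls, a score difference of 2.23 (SE 0.39). The promoter of PLEKHG5 had 5.78 and 5.50, against 3.03 and 2.89. SQSTM1, which encodes the autophagy receptor p62, had 4.75 and 4.93 at a region 1.89 kb from the nearest start (chr5:179818788-179819233), against 2.65 and 2.96. SNTG1, MTUS1, WNT8B, LOC105377705, LOC107986066, LOC100288069 and ZNF385D complete the 10, and in each of the 10 the groups did not overlap. Since these regions were ranked by this very difference, the gap between the groups is a description.

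**Figure D4:**
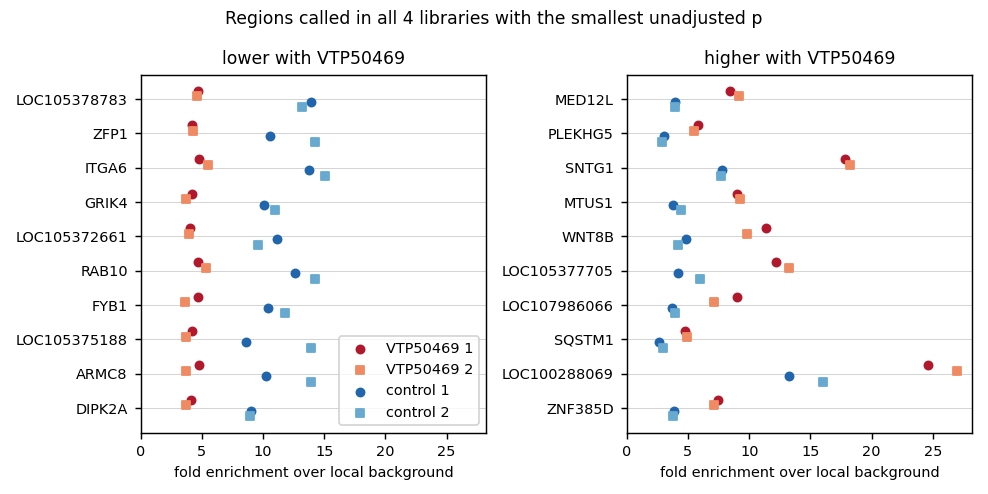
Fold enrichment of the 10 regions with the smallest unadjusted p in each direction is shown, each point being 1 library (red and orange VTP50469, blue control). On the left VTP50469 values lie at 3.61 to 5.52 and control values at 8.65 to 15.1, and on the right the order is reversed.

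Promoters called in all 4 libraries leaned upward. Their median shift was 0.09, beside 0.02 over all regions, with mean scores of 0.42 and 0.36 in VTP50469 libraries 1 and 2 and 0.33 and 0.30 in control libraries 1 and 2. At an unadjusted p of 0.05 in limma, 249 of 14533 promoter regions, or 1.71%, were higher and 151, or 1.04%, lower. Both shares lay below those of all regions, 3% higher and 3.59% lower, so promoters reached this p less often in either direction. Regions inside genes had a median shift of −0.0024 and those between genes −0.02. The 225 listed genes with a promoter region in all 4 libraries, each taken at its region of highest fold, had a median of 0.09, the same as all promoters. Some genes share a region, such as STAT5A and STAT5B, so these 225 are not a like set to all promoter regions. Of the 225, 7 were higher and 0 lower at that unadjusted p, beside 1.71% and 1.04% of all promoter regions. Beside MNDA, ERG and BCL2L11 the 7 were MKI67, the proliferation marker, ISG15 and IFIT1, which interferon induces, and SDHA, a mitochondrial enzyme. MKI67 had 18.1 and 19.5 with VTP50469, against 11.5 and 13.2 in controls. The ERG promoter rested on 11 and 8 reads with VTP50469, against 6 and 6 in controls. IFIT1 had 10.2 and 10.1, against 6.01 and 7.16. No promoter passed over all regions tested. The share of peaks at promoters also differed between libraries, at 17.6% and 14.8% with VTP50469, against 16.8% and 16.1% in controls, and the part of library composition in this shift was not tested.

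Averaging the scores of the always called regions of a locus gave a value for 9435 genes with at least 3 such regions. In limma 0 passed (0%), the lowest adjusted p being 0.408. With no adjustment, 357, or 3.78%, were higher and 265, or 2.81%, lower with VTP50469 at p of 0.05. Of 23 MLL target loci 18 had a higher and 5 a lower mean, with a median shift of 0.15 beside 0.02 over all loci, where 5108 of 9435 were higher. Of the 204 always called regions in these loci, 12 were higher and 7 lower at an unadjusted p of 0.05, with 0 passing. Over all 68527 always called regions, 3% were higher and 3.59% lower at that p. The locus means of these genes leaned upward and their lost and gained counts leaned toward loss, though no region or locus passed. Only regions called in all 4 libraries enter the means, so no lost or gained region does. The means and the counts thus describe different regions and cannot be set against each other. The MEF2C locus had mean scores of 0.01 and −0.16 in VTP50469 libraries 1 and 2, against −0.44 and −0.68 in controls, a shift of 0.49 (SE 0.20, adjusted p = 0.72 in limma). SENP6 had −0.68 and −0.28, against −0.81 and −1.07, a shift of 0.46 (SE 0.21). MEIS1 had −0.69 and −0.90, against −0.95 and −0.93, a shift of 0.14 (SE 0.19), and MYC −0.76 and −1.14, against −0.44 and −0.76, a shift of −0.35 (SE 0.21). FLT3, CDK6, TCF4 and PBX3 had shifts of 0.12, 0.01, −0.12 and 0.17, each smaller than its SE.

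**Figure D5:**
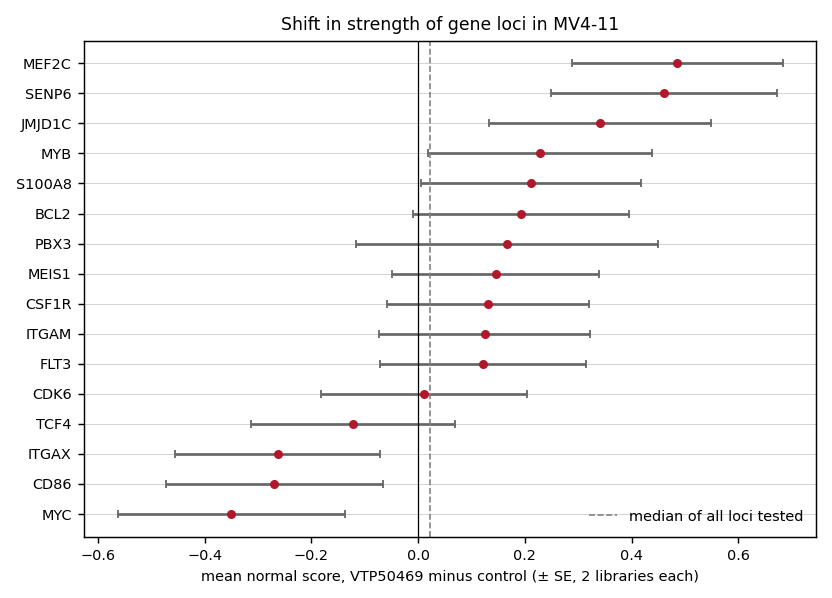
Points give the shift in mean normal score of a locus, VTP50469 minus control, with bars of 1 SE from 2 libraries a group, and the dashed line is the median of all loci tested. MEF2C and SENP6 lie highest, at 0.49 and 0.46, and MYC lowest, at −0.35, and no locus passed the adjusted test.

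Over all genes the lowest locus by p was ATP10A-DT, a lncRNA gene, with mean scores of −1.005 and −0.997 in VTP50469 libraries 1 and 2, against 0.32 and −0.09 in controls (shift −1.12, SE 0.21). EYA2, a phosphatase and coactivator like EYA1, had 0.70 and 0.70, against 1.51 and 1.75, and PIEZO2, a mechanosensitive channel, −0.06 and 0.14, against 0.74 and 0.98. The highest was CTBP1, a corepressor, with −0.09 and 0.08, against −1.1008 and −1.25 (shift 1.17, SE 0.19), followed by ASCC3, a helicase, with 0.73 and 1.1004, against −0.02 and −0.16. DLD, a subunit of mitochondrial dehydrogenases, had 1.21 and 0.87, against −0.01 and 0.23. SLC5A10, TMEM235, LOC105374333, GOLGA7B-DT, LOC105373220, TMEM161A and GARIN1A were the other low loci, and TRMT61A, EPOP, LOC124903364, REEP4, TM7SF3 and ADAP2 were among the other high ones. Most of these rest on 3 regions. Without VTP50469 library 1, 6 loci passed as higher and 7 as lower, and without VTP50469 library 2, 8 and 12 did, with CTBP1 and ATP10A-DT in both, where the spread came from the controls alone. Without either control library 0 passed.

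Most gained and lost regions had no peak in the other lines, as was also the case for equally weak regions called in 1 library of each MV4-11 group. No MOLM13 library had a peak in 59.4% of the gained, 57.3% of the lost and 58.5% of these mixed regions, and no OCI-AML3 library in 76.1%, 75.0% and 76.7%. Of regions called in all 4 MV4-11 libraries, which are stronger, these shares were 13.8% and 27.9%. Of the 3866 regions gained in MV4-11, MOLM13 had gained 107 (2.77%) and lost 32 (0.828%). Of the 5543 regions lost in MV4-11, MOLM13 had gained 130 (2.35%) and lost 82 (1.48%). In the mixed regions MOLM13 had gained 2.83% and lost 1.13%, and in those called in all 4 MV4-11 libraries 2.98% and 0.903%. MOLM13 gains thus outnumbered its losses in each of these classes. The MOLM13 VTP50469 libraries also held more peaks, 93598 and 100831, against 77753 and 90270 in its controls. OCI-AML3 had gained 34 (0.879%) and lost 46 (1.19%) of the regions gained in MV4-11, and gained 37 (0.668%) and lost 79 (1.43%) of those lost in MV4-11, against 0.580% gained and 1.304% lost in the mixed regions. In the 22845 regions called in all 12 libraries, the shift of MV4-11 was compared with that of each other line by limma. The difference passed in 0 regions against MOLM13 (smallest adjusted p 0.699) and in 0 against OCI-AML3 (0.307). At an unadjusted p of 0.05 the MV4-11 shift was higher in 479 and lower in 618 regions than that of MOLM13, and higher in 611 and lower in 726 than that of OCI-AML3.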

How the data were processed

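Per the labels, reads were demultiplexed with bcl2fastq (2.17), trimmed with Trimmomatic (0.33), aligned to hg38 with Bowtie (1.1.2) and passed to MACS2 (2.1.0) for peaks, with deepTools also named. The paper's methods name TopHat2 for alignment instead. The read shift, duplicate handling and peak settings are not given in the sources used here. Peaks had been called in each library alone, with the smallest −log10 q of each deposited list at a q of 0.05. In each deposited list the score is the −log10 q multiplied by 10 and cut to a whole number. The authors' fold enrichment (a ratio) sets the summit against the background of that library, with its −log10 p and −log10 q deposited beside it. The other deposited column is the summit offset in bp. No value was normalised between libraries, so strength was compared by rank.

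Reads over each summit were recovered from fold and p with a pseudocount of 1 read and a tolerance of 0.001, for 100% of peaks. They are not independent molecules. The fewest were 3 to 5 reads in the MV4-11 libraries, and this depth could not show weaker sites. Gene positions, and from them 42770 start sites, came from RefSeq on GRCh38.p14. For 5262 of the 32567 genes with a known strand, the strand, which sets the start site, came from GENCODE. Regions were named for the gene that holds them or the nearest start site. Strength was tested with limma 3.58.1 in R 4.3.3 (two-sided, Benjamini-Hochberg), tested first on simulated data. The study had used diffReps on reads, which peak lists cannot feed. Motifs were searched in RefSeq promoter windows and not around summits, since no hg38 genome was used here. These windows left out chromosome 8, where 371 regions were lost and 292 gained.

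The members, the 24 lists (306 genes, overlapping) and the alternatives were chosen with earlier results of these data known. Named genes were a fixed set of 22, genes of 7 lists (MLL targets, HOXA, HOXB, myeloid differentiation, myeloid factors, menin complex, stem and progenitor) with a lost or gained region, and in each direction the 10 strongest regions and promoters, the 10 lowest p of each fit and the 10 protein-coding genes with the largest excess. The apoptosis genes, the promoters of HOXA10, MEN1, KMT2A, MKI67, ISG15, IFIT1, SDHA and BCL2L11, the single sites called in all 4 libraries in FLT3 and MEF2C, and the split of strength by place were chosen after their values were seen. The titles number the replicates of each group, but the differences between replicates 1 and 2 correlated by only 0.0211 between groups, so no pairing was assumed. Some items that the naming rule covers are not reported here.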

Additional observations from a re-analysis of the deposited data

How the results depend on the processing

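Lost regions, 5543 in all, stayed within 1.5 times under 5 of the 6 other ways of counting all libraries, the exception being 1233 where both peaks had to reach a −log10 q of 5. The 3866 gained regions fell to 536 by that rule and to 2066 with only peaks of a −log10 q of 5. With one library left out, lost regions numbered 9510 to 28203 and gained ones 7577 to 38501. For MLL targets, the 35 lost and 8 gained regions became 17 lost with only peaks of a −log10 q of 5, 8 and 2 with both peaks at 5, and 4 and 0 near start sites, and with one library left out 47 to 156 and 19 to 123. For myeloid differentiation, the 4 lost and 6 gained became 9 and 3 with only peaks at 5, 1 and 2 with both at 5, 8 lost around summits, 1 lost near start sites and 3 gained with equal numbers, and with one library left out 7 to 19 and 8 to 19. The cause of these changes was not tested, beyond fewer peaks or libraries being asked for.

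No region passed in limma under any of 10 alternatives. Loci passed only with a VTP50469 library left out, 0 to 12 lower and 0 to 8 higher over the 4 fits. Of 56 named regions and loci, 3 locus shifts turned sign with all libraries: CDK6 (−0.061) and CD86 (0.14) near start sites and MYB (−0.066) with 50 kb flanks. With one library left out PBX3 ran from −0.27 (without VTP50469 library 1) to 0.60, CDK6 from −0.066 to 0.088 and MYB from −0.0024 to 0.46. The replicate block, a fit with the replicate number as a block, gave 0 regions and 0 loci that passed, with 2708 regions lower and 2220 higher at an unadjusted p of 0.05, and 281 and 377 loci. The log2 fold in place of scores gave 0 differences between lines. Depth limits all of this: a median of 11 to 13 reads stood over a summit.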
